A study of Mus musculus with 2 samples.

Results

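The genes described here were 9 genes of neutrophil granule and secreted proteins (Camp, Ltf, Ngp, Lcn2, Mmp8, Mmp9, Retnlg, Pglyrp1 and Wfdc21) and Padi4, which encodes a nuclear enzyme of neutrophils. They were chosen by gene symbol, and each symbol named 1 row in both matrices, so that 10 of 32285 listed genes were followed, of which 24636 had a UMI (a unique molecular identifier, which tags 1 captured transcript). The series held 2 droplet libraries of cells from digested lung (left lower lobe) of male mice of the outbred ICR strain, aged 6 to 8 weeks. The LPS_MCZ library came from mice given lipopolysaccharide (LPS) and miconazole, an azole antifungal, by intraperitoneal injection, with a dose of 0.2 mg/kg given with the sample and of 1 mg/kg in the protocol. The LPS library came from mice given LPS alone. Both groups received LPS, and there was no untreated group. All lungs of a group were pooled into its library, while the sources used here did not give how many mice there were or the dose and timing of LPS. Since each group had 1 library, the groups could not be tested against each other, and treatment cannot be told apart from library.

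Neutrophils load their granules in a fixed order while they mature in the bone marrow. Azurophil granules, with myeloperoxidase and elastase, are filled first, then specific granules, with lactoferrin, cathelicidin and lipocalin, and last gelatinase granules. Transcripts of most granule proteins are therefore highest in immature neutrophils and low in mature ones, while lipocalin 2 is also induced by inflammatory signals in several cell types. Peptidylarginine deiminase 4, the Padi4 product, converts arginine in histones to citrulline, a step in the release of neutrophil extracellular traps (NETs).

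All 10 genes were annotated as protein coding in GENCODE vM21 (GRCm38), and none overlapped another annotated gene. Camp, Ngp and Ltf lay on chromosome 9, at chr9:109847379-109849617 on the minus strand, chr9:110419747-110423012 on the plus strand and chr9:111019271-111042767 on the plus strand. This span of 1195 kb held 31 protein-coding genes, counting Camp, Ngp and Ltf. Padi4 lay at chr4:140745865-140774236 on the minus strand and Lcn2 at chr2:32384633-32388252 on the minus strand. Promoter windows from 250 bases before to 50 bases after the annotated start were found in RefSeq (GRCm38.p6) for 8 of the 10 genes, all but Mmp9 and Wfdc21. The windows of these 3 genes on chromosome 9 are shown because their transcripts varied together over the neutrophil clusters. The window of Lcn2 is shown because its transcripts ran the other way, and that of Padi4 because its transcripts varied less over states. Capitals mark matches to the core of the C/EBP motif, TTGCNNAA on either strand.

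Camp, chr9:109849407-109849706, minus strand: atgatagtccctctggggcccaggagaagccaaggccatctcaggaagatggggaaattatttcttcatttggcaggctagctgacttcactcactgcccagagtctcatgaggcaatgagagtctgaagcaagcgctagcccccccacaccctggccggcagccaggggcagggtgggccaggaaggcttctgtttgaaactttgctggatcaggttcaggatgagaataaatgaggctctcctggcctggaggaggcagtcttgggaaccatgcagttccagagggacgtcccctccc
Ngp, chr9:110419558-110419857, plus strand: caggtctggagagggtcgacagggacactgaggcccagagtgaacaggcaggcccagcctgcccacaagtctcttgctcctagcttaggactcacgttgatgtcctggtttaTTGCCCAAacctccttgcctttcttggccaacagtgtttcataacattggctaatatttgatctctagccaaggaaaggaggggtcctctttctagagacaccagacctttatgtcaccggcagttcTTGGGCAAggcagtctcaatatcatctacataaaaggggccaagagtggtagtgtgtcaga
Ltf, chr9:111019042-111019341, plus strand: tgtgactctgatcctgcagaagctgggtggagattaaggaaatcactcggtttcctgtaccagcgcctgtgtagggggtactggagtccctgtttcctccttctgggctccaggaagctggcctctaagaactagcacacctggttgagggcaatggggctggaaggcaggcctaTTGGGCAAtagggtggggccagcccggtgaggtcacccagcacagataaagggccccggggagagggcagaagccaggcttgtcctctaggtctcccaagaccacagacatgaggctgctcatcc
Lcn2, chr2:32387690-32387989, minus strand: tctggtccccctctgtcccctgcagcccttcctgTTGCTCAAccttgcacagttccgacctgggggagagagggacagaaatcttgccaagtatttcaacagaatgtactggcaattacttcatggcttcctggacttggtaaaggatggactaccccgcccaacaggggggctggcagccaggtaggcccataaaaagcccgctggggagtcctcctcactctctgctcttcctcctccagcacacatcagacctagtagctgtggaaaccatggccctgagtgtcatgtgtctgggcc
Padi4, chr4:140774154-140774453, minus strand: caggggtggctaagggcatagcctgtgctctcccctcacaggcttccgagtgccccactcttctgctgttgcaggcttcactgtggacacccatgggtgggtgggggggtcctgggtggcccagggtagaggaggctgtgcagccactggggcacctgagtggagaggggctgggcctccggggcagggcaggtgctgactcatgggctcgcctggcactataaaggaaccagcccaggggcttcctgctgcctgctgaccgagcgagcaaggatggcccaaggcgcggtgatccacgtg

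Windows of 5 of the 8 genes held at least 1 match to TTGCNNAA (Ltf, Ngp, Lcn2, Mmp8 and Retnlg), against 10.8% of 32851 mouse promoter windows of the same length. The Ngp window held a pair of matches, with first bases at -138 and -11 relative to the start, and the Ltf match began at -75. The core of the PU.1 motif, GAGGAA on either strand, was present in 4 of the 8 windows and in 28.3% of all windows. The Camp and Padi4 windows held neither of these letter strings. A match describes the letters only, and binding was not measured here.

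The LPS_MCZ library held 8500 barcodes with a median of 6102 UMIs and the LPS library 12577 with a median of 5701, of which 8314 LPS_MCZ cells and 12076 LPS cells were kept. The libraries shared 243 barcodes, mostly in alveolar macrophage-like cells and an unnamed cluster of low UMI counts. Among neutrophil-like cells 21 barcodes in each library were shared. Clustering with the 10 genes and related granule genes left out gave 26 clusters, of which 7 were neutrophil-like, each with all 11 neutrophil markers above the baseline used for naming. These 7 clusters held 5707 cells of the LPS_MCZ library (68.6%) and 7591 cells of the LPS library (62.9%), at a median of 5807 UMIs in LPS_MCZ and 5623 UMIs in LPS. In T cell-like cells, which should lack them, S100a8 and S100a9, the most abundant neutrophil transcripts, still reached 6980 and 10591 CPM (counts per 1e+06 summed UMIs) in LPS_MCZ and 6872 and 10555 CPM in LPS. Neutrophil transcripts were thus measured in droplets of other types, whether as free RNA or through doublets was not tested, and levels outside neutrophils are read against them below. Ratios are log2 of LPS_MCZ over LPS with 1 CPM added to each level. Folds, between libraries or between states, also have 1 CPM added to each level. Brackets hold exact 95% intervals of the plain count ratio, which cover counting error only.

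The neutrophil clusters differed in state. Clusters 5, 4 and 8 had the highest mean level of 12 markers of immature neutrophils, with 9, 8 and 11 of them above the mean of the neutrophil clusters, and held 43.4% of LPS_MCZ neutrophils and 38.1% of LPS neutrophils. Cluster 2 also had 9 of the 12 above that mean, at a lower mean level. Of 9 markers of mature circulating neutrophils, 8 were above the mean in cluster 4, 7 in cluster 2 and 5 in cluster 1. There were 4 in cluster 0, 3 in cluster 8 and 2 in clusters 5 and 7. Their mean level was highest in cluster 4, so the name immature-marker-high refers to the 12 immature markers only. Clusters 1 and 0 had the highest mean level of chemokine and NF-kB target genes such as Ccl3, Ccl4 and Cxcl2, with 12 of 12 above that mean in each, and held 47.8% of LPS_MCZ neutrophils and 29.96% of LPS neutrophils. Clusters 2 and 7 lay between, with 8.83% of LPS_MCZ neutrophils and 31.9% of LPS neutrophils. All 10 interferon-stimulated markers were above the mean in clusters 0, 2 and 7, 6 of them in cluster 1, 1 in cluster 8 and 0 in clusters 4 and 5. The clusters also split by library, since cluster 1 held 2555 LPS_MCZ cells and 492 LPS cells, cluster 4 held 1831 LPS_MCZ cells and 452 LPS cells, and cluster 0 held 174 LPS_MCZ cells and 1782 LPS cells. Ratios are therefore given over all neutrophils and within each cluster.

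Camp, which encodes the antimicrobial peptide cathelicidin, had a steep gradient over these states in both libraries. Its level was highest in cluster 5, at 2247 CPM in LPS_MCZ and 2048 CPM in LPS. It was lowest in cluster 1, at 40.8 CPM in LPS_MCZ and 16.1 CPM in LPS. Over the pooled states Camp was 18.6-fold higher in the immature-marker-high clusters than in the chemokine-high clusters of LPS_MCZ (797 against 42.0 CPM) and 14.8-fold higher in those of LPS (1636 against 109.6 CPM). The chemokine-high clusters lay near the level of Camp in T cell-like cells, 45.8 CPM in LPS_MCZ and 83.5 CPM in LPS, and below that in erythroid-like cells, 152 CPM in LPS_MCZ and 157 CPM in LPS.

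Ngp, the neutrophilic granule protein related to cathelicidins, and Ltf, which encodes the iron-binding protein lactoferrin, followed the same order. Ngp was 15.8-fold higher in the immature-marker-high than in the chemokine-high clusters of LPS_MCZ (5181 against 327 CPM) and 14.9-fold higher in those of LPS (6434 against 430.4 CPM). Ltf was 8.80-fold higher in those of LPS_MCZ (408 against 45.5 CPM) and 11.2-fold higher in those of LPS (687 against 60.7 CPM). In T cell-like cells Ltf had 46.99 CPM in LPS_MCZ and 51.8 CPM in LPS, and Ngp 464 CPM in LPS_MCZ and 430.1 CPM in LPS, so the chemokine-high levels of both lay near the background and these folds depend on it. Over the 14 pools of 7 clusters in each library, Pearson's r of log2 levels between Camp and Ngp was 0.99 and between Camp and Ltf 0.96. The pools of a library share depth and free RNA, so these values are descriptions.

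Mmp8, the neutrophil collagenase, was 7.00-fold higher in the immature-marker-high clusters of LPS_MCZ and 6.65-fold higher in those of LPS. Retnlg, which encodes resistin-like gamma, was 4.48-fold higher in LPS_MCZ and 4.83-fold higher in LPS. Wfdc21, a small secreted protein with a whey acidic protein domain, was 2.40-fold higher in each library. Mmp9, or gelatinase B, was 2.34-fold higher in LPS_MCZ and 3.11-fold higher in LPS. Of the metalloproteinases, the collagenase thus had the wider range over states in both libraries and the gelatinase the narrower one.

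Padi4 and Pglyrp1, which encodes a peptidoglycan recognition protein of specific granules, varied less. Padi4 was 1.35-fold higher in the immature-marker-high clusters of LPS_MCZ (72.8 against 53.7 CPM) and 1.97-fold higher in those of LPS (30.5 against 15.01 CPM). Pglyrp1 was 1.32-fold higher in LPS_MCZ and 2.00-fold higher in LPS. Lcn2, which encodes a lipocalin that binds bacterial siderophores, ran the other way. It was 1.36-fold lower in the immature-marker-high than in the chemokine-high clusters of LPS_MCZ (18076 against 24576 CPM) and 1.23-fold lower in those of LPS (18832 against 23128 CPM). Its r with Camp was -0.61 over the 14 pools, while that of Padi4 was 0.33 with Camp and 0.86 with Pglyrp1. Padi4 and Pglyrp1 were each higher in LPS_MCZ in all 7 clusters. The difference between the libraries therefore enters their r values beside that between states.

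**Figure D1:**
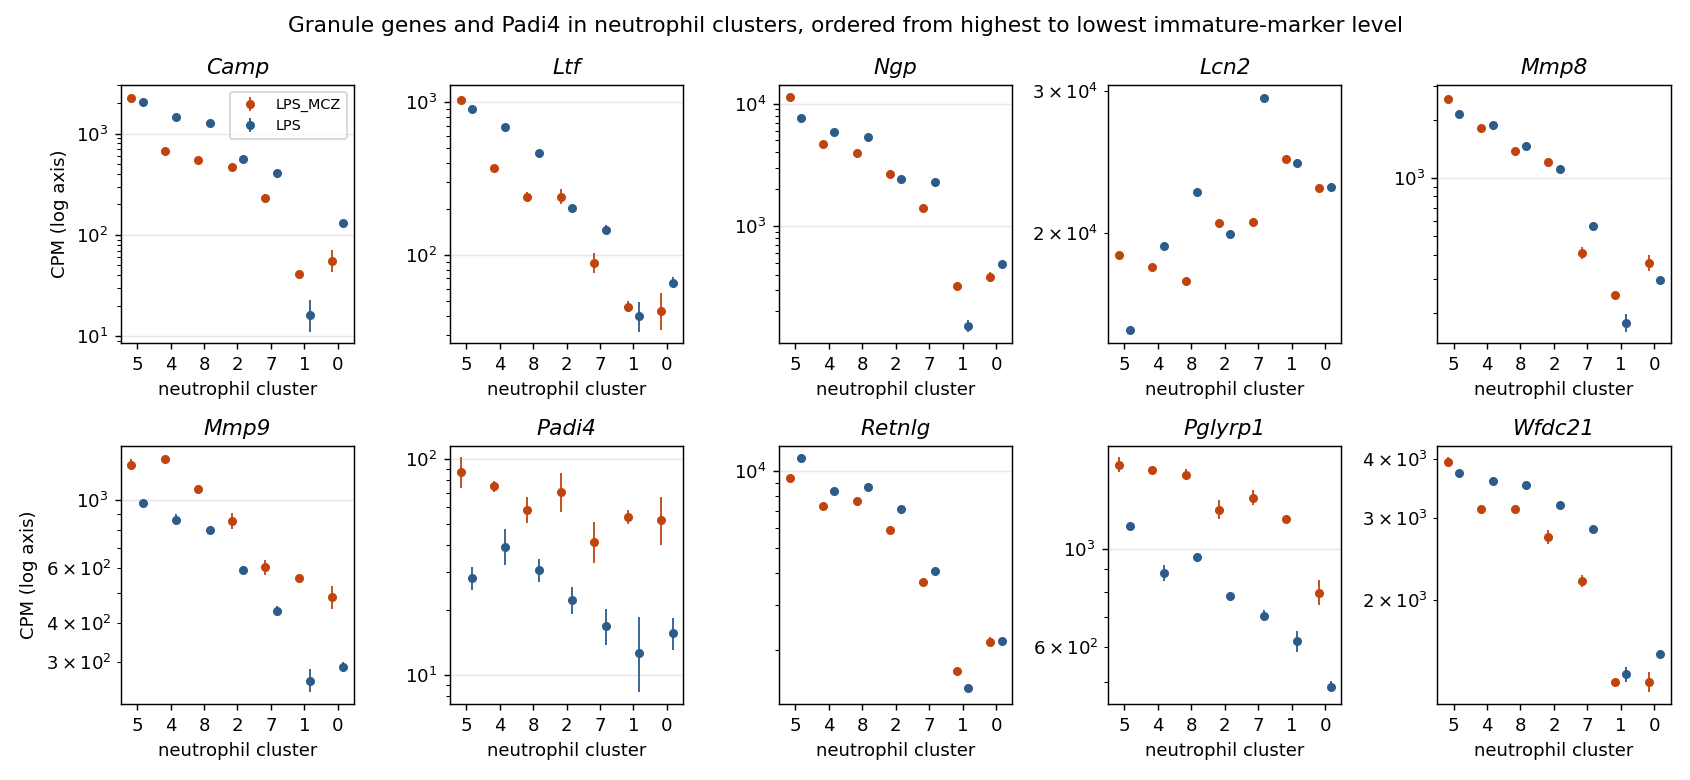
Level of each gene in CPM (log axis, with its own range in each panel) in the 7 neutrophil clusters, ordered from the highest to the lowest immature-marker level, in the LPS_MCZ library (orange) and the LPS library (blue). Bars are exact 95% Poisson intervals of the counts. Camp, Ngp, Ltf and Mmp8 are highest in cluster 5, Lcn2 is highest in cluster 1 of LPS_MCZ and cluster 7 of LPS, and the Padi4 points of LPS_MCZ all lie above those of LPS.

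Transcripts of Camp, Ltf and Ngp were also concentrated in few cells. The 5% of neutrophils with the most Camp UMIs held 72.9% of them in LPS_MCZ and 77.3% in LPS, with up to 476 UMIs in a cell of LPS_MCZ and 556 in a cell of LPS. For Ltf the same share was 77.2% in LPS_MCZ and 81.8% in LPS, and for Ngp 53.3% in LPS_MCZ and 55.6% in LPS. The share did not follow the steepness over states. Mmp8 had 32.5% in LPS_MCZ and 27.9% in LPS. Padi4, with a median of 0 UMIs per cell, had 43.0% in LPS_MCZ and 64.0% in LPS. How far low counts raise these shares was not tested. Lcn2 was spread most evenly of the 10 genes, with 14.8% of its UMIs in the top 5% of LPS_MCZ cells, 17.1% in the top 5% of LPS cells and a median of 115 UMIs per cell in LPS_MCZ and 100 in LPS. After each cell was thinned to 1000 UMIs, Lcn2 was detected in 99.7% of LPS_MCZ neutrophils and 98.8% of LPS neutrophils, and Camp in 12.5% of LPS_MCZ neutrophils and 14.8% of LPS neutrophils. In the immature-marker-high clusters the share with Camp was 24.8% in LPS_MCZ and 27.9% in LPS. In the chemokine-high clusters it was 2.19% in LPS_MCZ, where 2.08% of T cell-like cells had a Camp UMI, and 2.26% in LPS, where 1.51% of T cell-like cells did, so that detection there was near the background.

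Between the libraries, 3 of the 10 genes were higher in LPS_MCZ neutrophils by more than 0.5 on the log2 scale, namely Padi4, Pglyrp1 and Mmp9. Across 10620 genes with at least 50 UMIs in these cells, 12.6% were higher by that much. The genes Camp and Ltf were lower by more than 0.5, and 4.4% of all genes were. The median ratio of the 10 genes was -0.19, against 0.12 over all genes, whose standard deviation was 0.38.

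Padi4 had the highest ratio of the 10. It reached 63.5 CPM in LPS_MCZ neutrophils from 2356 UMIs, against 23.5 CPM in LPS neutrophils from 1104 UMIs. The LPS_MCZ level was 2.63-fold higher, a log2 ratio of 1.40 [1.33, 1.54]. It was higher in LPS_MCZ in each of the 7 neutrophil clusters, from 0.91 [0.66, 1.20] in cluster 8 (58.0 CPM in LPS_MCZ, 30.5 CPM in LPS) to 2.01 [1.53, 2.71] in cluster 1 (53.9 CPM in LPS_MCZ, 12.7 CPM in LPS). Of all genes, 1.12% were higher by more than 0.5 in every neutrophil cluster, and Padi4 was the only one of the 10. In cells thinned to 1000 UMIs, Padi4 was detected in 4.99% of LPS_MCZ neutrophils [4.43, 5.59] and 1.84% of LPS neutrophils [1.55, 2.17].

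The Padi4 difference was not limited to neutrophils. Its ratio was above 0 in all 15 other types and unnamed clusters with at least 20 cells in each library, and in 9 of them the interval lay above 0. These ratios rest on 1 to 82 UMIs per type in LPS_MCZ and 0 to 94 in LPS. T cell-like cells had 29.0 CPM in LPS_MCZ and 16.2 CPM in LPS, a log2 ratio of 0.80 [0.38, 1.30]. The thinned share of T cell-like cells was 3.47% [1.68, 6.29] in LPS_MCZ and 0.753% [0.277, 1.63] in LPS. These shares rest on 10 of 288 LPS_MCZ cells and 6 of 797 LPS cells. Thinned to 2000 UMIs they were 5.04% in LPS_MCZ and 2.76% in LPS. Gm42418, a gene that overlaps ribosomal RNA, was also higher throughout the LPS_MCZ library. It had 7441 CPM in LPS_MCZ neutrophils and 3467 CPM in LPS neutrophils, a log2 ratio of 1.10, and 17893 CPM in LPS_MCZ and 8124 CPM in LPS T cell-like cells, a ratio of 1.14. The part of such a library-wide difference in the Padi4 values was not tested.

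Mmp9 and Pglyrp1 were also higher in LPS_MCZ in each of the 7 clusters, as were 12.7% of all genes. Mmp9 averaged 947 CPM in LPS_MCZ neutrophils and 631 CPM in LPS neutrophils, a log2 ratio of 0.59 [0.56, 0.61] that ranged from 0.41 in cluster 5 to 1.10 in cluster 1. Pglyrp1 had 1340 CPM in LPS_MCZ and 817 CPM in LPS, a ratio of 0.71 [0.69, 0.73] that ranged from 0.46 in cluster 5 to 0.92 in cluster 1. Both were also higher in 13 of the 15 other types and clusters, whose droplets also held neutrophil transcripts. Relative to S100a8 and S100a9, Mmp9 in T cell-like cells had 1.01 times the neutrophil level in LPS_MCZ and 1.19 times in LPS. Pglyrp1 had 1.09 times in LPS_MCZ and 1.24 times in LPS. How far the values outside neutrophils repeat the neutrophil difference was not tested. The thinned share of neutrophils with Mmp9 was 47.5% in LPS_MCZ and 35.2% in LPS, and that of T cell-like cells 4.51% in LPS_MCZ and 2.63% in LPS. For Pglyrp1 the share of neutrophils was 64.6% in LPS_MCZ and 44.7% in LPS, and that of T cell-like cells 8.68% in LPS_MCZ and 5.02% in LPS.

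Camp had the lowest ratio. Its level was 456 CPM in LPS_MCZ neutrophils and 919.9 CPM in LPS neutrophils, a log2 ratio of -1.01 [-1.04, -0.99]. Within clusters the values parted. Camp was lower in LPS_MCZ in 5 of the 7, with -1.20 [-1.27, -1.13] in cluster 8 (549.9 CPM in LPS_MCZ, 1261 CPM in LPS) and -1.11 [-1.17, -1.06] in cluster 4 (674 CPM in LPS_MCZ, 1456 CPM in LPS), but in cluster 5, where it was highest, the ratio was 0.13 [0.08, 0.18]. Cluster 1, where Camp was lowest, held 44.8% of LPS_MCZ neutrophils and 6.48% of LPS neutrophils, and the part of the cluster mix in the ratio over all neutrophils was not tested. The ratio was -0.47 without cluster 1, and the mean of the ratios within clusters was -0.45, both short of 0.5. Leaving out cluster 1 kept cluster 0, the other chemokine-high cluster, with 174 LPS_MCZ cells and 1782 LPS cells. Ratios without cluster 1, here and below, thus still compare unequal mixes of states. The median of the ratios within clusters was -0.82, and Camp was lower by more than 0.5 in 4 of the 7 clusters.

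Ltf had 241 CPM in LPS_MCZ and 381 CPM in LPS neutrophils, a ratio of -0.65 [-0.69, -0.62]. It was lower in 4 of the 7 clusters and higher in clusters 5, 2 and 1, where the interval of cluster 1 included 0. Without cluster 1 its ratio was -0.17, and the mean within clusters was -0.36. The median within clusters was -0.60, and Ltf was lower by more than 0.5 in 4 of the 7 clusters and higher by that much in 0. No gene of the 10 was lower by more than 0.5 in every neutrophil cluster, and 0.508% of all genes were.

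The other 5 genes lay within 0.5 of no difference. Ngp had 2966 CPM in LPS_MCZ and 3752 CPM in LPS neutrophils (-0.34), and its ratio without cluster 1 was 0.19. Retnlg had 4985 CPM in LPS_MCZ and 6709 CPM in LPS (-0.43), and Wfdc21 had 2397 CPM in LPS_MCZ and 2944 CPM in LPS (-0.30). For each of these the interval lay below 0 in 5 of the 7 clusters, but without cluster 1 the ratio was -0.013 for Retnlg and -0.0069 for Wfdc21. Mmp8 had 1095 CPM in LPS_MCZ and 1161 CPM in LPS (-0.08). Lcn2 was the most abundant of the 10 and nearly level between the libraries, at 20875 CPM in LPS_MCZ and 21472 CPM in LPS (-0.04). Together the 10 genes made up 3.54% of all neutrophil UMIs in LPS_MCZ and 3.88% in LPS.

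**Figure D2:**
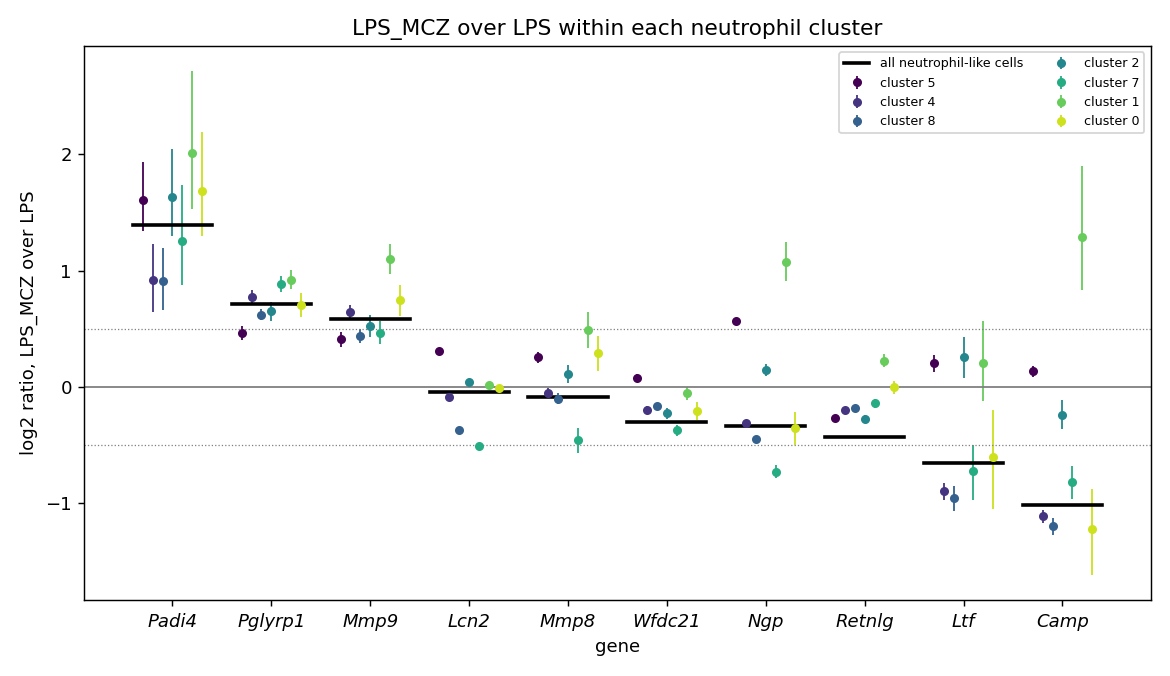
Log2 ratio of LPS_MCZ over LPS for each gene within each of the 7 neutrophil clusters (points, coloured by cluster, with exact 95% counting intervals) and over all neutrophil-like cells (black bars). Dotted lines mark a ratio of 0.5 in either direction. All points of Padi4, Pglyrp1 and Mmp9 lie above 0, while those of Camp run from -1.22 in cluster 0 to 1.29 in cluster 1.

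**Figure D3:**
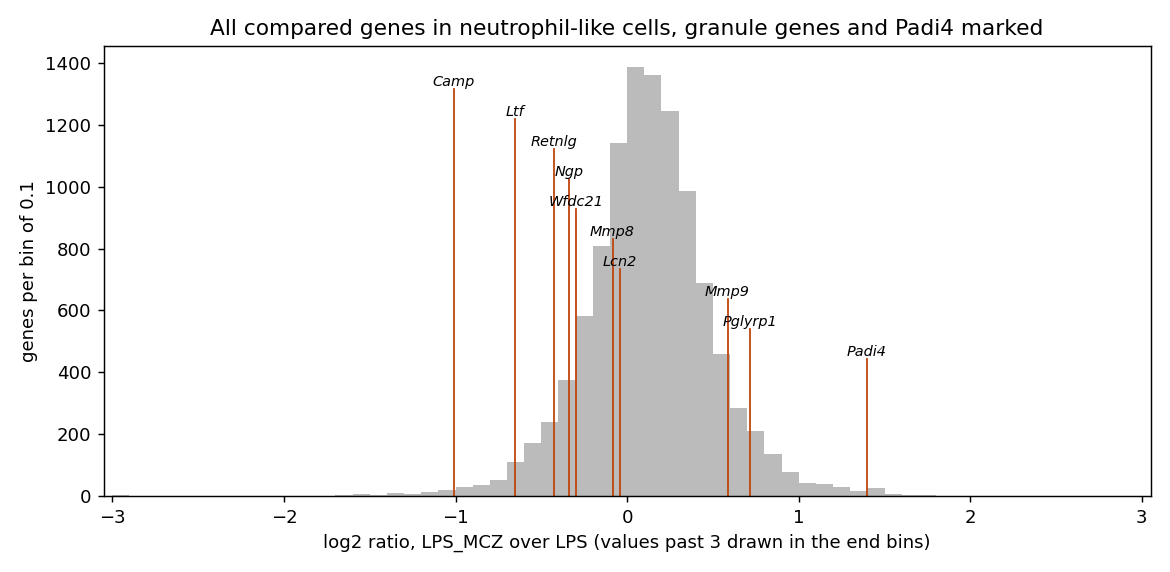
Number of genes (vertical axis) by log2 ratio of LPS_MCZ over LPS in neutrophil-like cells (horizontal axis, bins of 0.1) for 10620 genes, with the 10 genes marked by lines whose height has no meaning. Camp (-1.01) lies in the lower tail and Padi4 (1.40) in the upper tail, and the others lie between them.

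Outside the 10 genes themselves, the genes whose levels most resembled those of Camp over the 14 pools were Abca13, Cd177, Adpgk, Pdk3 and Lyz2, with Pearson's r of 0.97 each among 5607 genes ranked. Cd177, a surface protein held in specific granules, and Lyz2, a lysozyme, are granule genes themselves, and Adpgk was among the immature markers that ordered the clusters. Mmp9 most resembled Pgd, Mrps21, Txndc17, Acap1 and Dhrs7, with r of 0.97 to 0.98. Padi4 most resembled Col4a3bp, Tapbpl, Pde8a, Gak and Cers2, with r of 0.96 to 0.98. Every LPS_MCZ pool had a higher Padi4 level than every LPS pool (lowest 41.4 CPM in LPS_MCZ, highest 39.2 CPM in LPS), so the difference between the libraries enters its r beside that between states.

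Other granule genes differed between the libraries in both directions. The counts for this and each list below stand beside the shares of all 10620 genes, 12.6% higher and 4.4% lower by more than 0.5. No list was tested against these shares. Of 17 azurophil granule genes 11 had enough UMIs, and 4 were higher by more than 0.5 and 0 lower, with a median ratio of 0.21. Among those with the largest ratios were the lysosomal enzymes Man2b1 (60.4 CPM in LPS_MCZ, 31.7 CPM in LPS, 0.91) and Ctsd (0.59) and the membrane protein Cd63 (0.53). Of the defining azurophil genes, Mpo and Elane had almost no UMIs, with 7 of Mpo and 5 of Elane in LPS_MCZ neutrophils, and 10 of Mpo and 7 of Elane in LPS neutrophils. Ctsg had 3 UMIs in each library. Prtn3, another azurophil protease, had more, with 64 UMIs in LPS_MCZ and 41 in LPS. Its ratio was 0.54 [0.39, 1.58], which placed it among the 4 that were higher.

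Among 24 other genes of specific and gelatinase granules, 5 were higher and 3 lower by more than 0.5, and the median was -0.05. Orm1, an acute phase protein, was lower in LPS_MCZ in all 7 clusters, with 279 CPM in LPS_MCZ neutrophils and 694 CPM in LPS neutrophils (-1.31). Ceacam10, a surface glycoprotein, had a ratio of -0.84 over all neutrophils but of -0.48 to 0.23 within clusters. Itgam and Itgb2, the chains of the Mac-1 integrin, were each higher, at 0.72, and were higher in all 7 clusters.

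Of 10 transcription factors of the granule programme 9 were compared, 2 were higher by more than 0.5 and 0 lower. The 2 were Cebpe, required for specific granules (15.7 CPM in LPS_MCZ, 6.84 CPM in LPS, 1.09), and Cebpa (5.68 CPM in LPS_MCZ, 2.38 CPM in LPS, 0.98), both at low counts. Spi1, which encodes PU.1, had a ratio of 0.39 and Klf5 of -0.40. Cebpe levels were higher in the chemokine-high than in the immature-marker-high clusters of both libraries, 24.5 against 8.95 CPM in LPS_MCZ and 10.5 against 5.12 CPM in LPS, although Cebpe was among the immature markers that ordered the clusters.

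Of 17 genes of NET formation 12 were compared. Ripk3, a kinase of necroptosis, was higher by more than 0.5 (16.97 CPM in LPS_MCZ, 10.3 CPM in LPS, 0.67), and 0 were lower. The oxidase subunit Ncf1 and the pore-forming Gsdmd each had a ratio of 0.39 and Mlkl one of -0.38, and the median of the list was 0.12, that of all genes.

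Of 15 receptors and inhibitors of the 10 proteins, 12 were compared, and 2 were higher by more than 0.5. They were the metalloproteinase inhibitors Timp1 (3.26 CPM in LPS_MCZ, 1.58 CPM in LPS, 0.73) and Timp2 (97.4 CPM in LPS_MCZ, 61.6 CPM in LPS, 0.65). The formyl peptide receptor Fpr2, a receptor of the human cathelicidin peptide, had a ratio of -0.40 and Lrp1 one of 0.37. Of 19 paralogues 9 were compared, 2 higher and 2 lower by more than 0.5. Wfdc17, a relative of Wfdc21, was abundant and lower, with 4383 CPM in LPS_MCZ neutrophils and 8621 CPM in LPS neutrophils (-0.98), as was Wfdc18 (-0.54), while Pglyrp4 (0.76) and Mmp19 (0.74) were higher. Padi2, another deiminase, had 7 UMIs in LPS_MCZ neutrophils and 12 in LPS neutrophils.

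Outside neutrophils, levels were read against the neutrophil transcripts found in every cell type. RNA from a source of fixed composition would keep its genes in a constant ratio, whether it enters as free RNA or in doublets. UMIs of each gene were therefore set over those of S100a8 and S100a9 and compared with that ratio in neutrophils. The ratio was not constant among neutrophils themselves. In the chemokine-high clusters of LPS_MCZ Lcn2 had 24576 CPM and S100a8 28210 CPM, against 18076 and 90604 CPM in the immature-marker-high clusters. In those of LPS the values were 23128 and 27024 CPM against 18832 and 92445 CPM. Which neutrophils the RNA came from was not tested, so values near 2 times are descriptions. In T cell-like cells 9 of the 10 genes had 0.93 to 1.80 times the neutrophil ratio in LPS_MCZ and 0.93 to 1.40 times in LPS, all but Padi4. A gene was set apart where it exceeded 2 times the neutrophil ratio in both libraries with at least 20 UMIs in each, and 8 pairs of gene and cell type did so.

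Wfdc21 was set apart in alveolar macrophage-like cells, at 4.21 times the neutrophil ratio in LPS_MCZ (3541 UMIs, 504 CPM) and 3.44 times in LPS (3190 UMIs, 380.5 CPM). Its levels differed among the alveolar macrophage clusters, which the libraries filled unequally. Cluster 20 held 94 LPS_MCZ cells and 283 LPS cells, cluster 22 held 173 LPS_MCZ cells and 63 LPS cells, and cluster 16 held 159 LPS_MCZ cells and 289 LPS cells. In cluster 20 Wfdc21 had 949 CPM in LPS_MCZ and 388 CPM in LPS, a log2 ratio of 1.29 [1.21, 1.37]. In cluster 22 it had 224 CPM in LPS_MCZ and 245 CPM in LPS. In cluster 16 it had 407 CPM in LPS_MCZ, from cells with a median of 742 UMIs, and 498 CPM in LPS, from cells with a median of 1093 UMIs. Without barcodes found in both libraries the class had 502 CPM in LPS_MCZ and 379 CPM in LPS.

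Mmp8 was set apart in classical monocyte-like cells, at 3.41 times the neutrophil ratio in LPS_MCZ and 4.27 times in LPS, with 194 CPM in LPS_MCZ and 238 CPM in LPS. Of the clusters of this class the excess was wider in cluster 18, with 38 cells in LPS_MCZ and 61 in LPS and Top2a, a proliferation gene, among its leading genes, at 12.96 times in LPS_MCZ (298 CPM) and 11.4 times in LPS (386 CPM). Without shared barcodes the class had 198 CPM in LPS_MCZ and 238 CPM in LPS.

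Lcn2 was set apart in alveolar type 2-like cells, at 4.35 times the neutrophil ratio in LPS_MCZ (8315 CPM) and 18.5 times in LPS (10751 CPM). This cluster held 37 cells of LPS_MCZ and 46 of LPS, and was led by Scgb1a1, a club cell gene, and the surfactant gene Sftpc. Pglyrp1 was set apart in the same cluster, at 2.43 times in LPS_MCZ (123 UMIs, 298 CPM) and 5.56 times in LPS (57 UMIs, 122.8 CPM). Its level was thus higher in LPS_MCZ, with a log2 ratio of 1.27 [0.81, 1.76]. S100a8 in this cluster had 5476 CPM in LPS_MCZ and 1590 CPM in LPS. The multiples of Lcn2 and Pglyrp1 here therefore do not compare levels between the libraries. In interstitial macrophage-like cells Lcn2 stood at 2.24 times in LPS_MCZ (2245 CPM, 35 cells) and 3.04 times in LPS (5900 CPM, 49 cells), and without shared barcodes it had 2218 CPM in LPS_MCZ and 5917 CPM in LPS. Other granule genes also stood above 2 times in the LPS cells of this class, Ltf at 0.46 times in LPS_MCZ and 2.95 times in LPS, Ngp at 0.28 times in LPS_MCZ and 2.90 times in LPS, and Mmp8 at 0.61 times in LPS_MCZ and 2.41 times in LPS. Removing the cells with the highest doublet scores, 6.65% of all LPS_MCZ cells and 9.66% of all LPS cells, left 30 cells of the class in LPS_MCZ and 27 in LPS. The scores came from a doublet caller that did not work here, so the part of doublets in these values was not tested.

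Padi4 was set apart in T cell-like cells, at 4.22 times the neutrophil ratio in LPS_MCZ (71 UMIs) and 7.09 times in LPS (94 UMIs). In NK cell-like cells it stood at 3.25 times in LPS_MCZ (37 UMIs) and 5.37 times in LPS (30 UMIs). In classical monocyte-like cells it stood at 2.00 times in LPS_MCZ (82 UMIs) and 3.50 times in LPS (59 UMIs). The excess was not limited to the types set apart, since others passed 2 times in both libraries but fell short of 20 UMIs. B cell-like cells stood at 2.07 times in LPS_MCZ (10 UMIs) and 6.06 times in LPS (16 UMIs). Alveolar macrophage-like cells stood at 2.65 times in LPS_MCZ (59 UMIs) and 2.16 times in LPS (16 UMIs), and cluster 11 at 21.8 times (32 UMIs) and 2.71 times (3 UMIs). With T cell-like cells as the base in place of neutrophils, 5 of the 8 pairs remained. The Padi4 pair of T cell-like cells could not be among them, since it is then its own base, and those of NK cell-like and classical monocyte-like cells were not. The sources used here did not give whether reads in introns were counted.

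**Figure D4:**
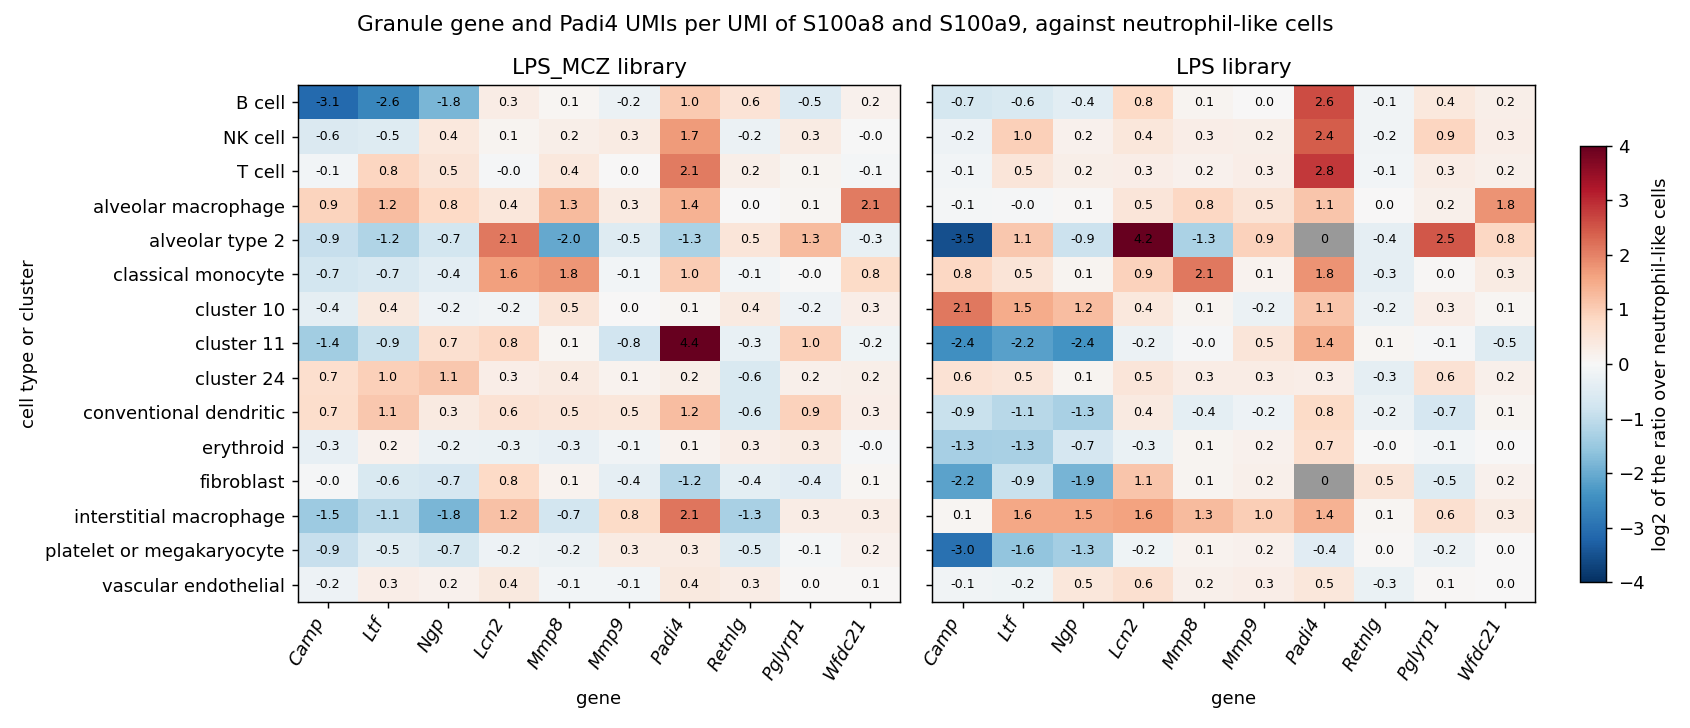
Log2 of the ratio of each gene (columns) to S100a8 and S100a9 in each other cell type or unnamed cluster (rows), over the same ratio in neutrophil-like cells, in the LPS_MCZ library (left) and the LPS library (right). A value of 0 means the neutrophil ratio, and grey cells mark 0 UMIs. Padi4 in T cell and NK cell rows, Lcn2 in the alveolar type 2 row, Wfdc21 in the alveolar macrophage row and Mmp8 in the classical monocyte row are above 1 in both libraries.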

How the data were processed

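Each sample was 1 library of 10x Genomics 3' version 3 chemistry, per the labels' protocols. The deposited values were unnormalized UMI counts for every gene in every barcode, written by Cell Ranger 7.0.0 per the file headers, and bcl2fastq 2.20 and the mm10 build were used, per the submitters' processing notes. The 10 genes and all gene lists were chosen with earlier results of these data known.

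Barcodes needed 200 genes and 500 UMIs, with mitochondrial UMIs of 20% or less. Scrublet (in scanpy 1.11.5) called 0 LPS_MCZ cells and 1 LPS cell, against expected rates of 6.65% in LPS_MCZ and 9.66% in LPS, so it did not work and doublets were kept. Both libraries were clustered together (2000 variable genes without 51 granule-related genes, 30 components, 15 neighbours, Leiden resolution 1). Clusters were named "-like" from 3 or more fixed markers that exceeded the 25th percentile over clusters by 1 on the log2 scale, a baseline chosen after a first naming had left cluster 1 unnamed. Clusters 10, 11 and 24 stayed unnamed. The limits that define the neutrophil states were set after the clusters had been seen.

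UMIs were summed per class and library as CPM, so depth set the intervals: neutrophils held 37122700 UMIs in LPS_MCZ and 46960400 in LPS. The ratio calculation was tested on simulated counts, and alternatives changed the cell filter, doublets, clustering, scaling, pseudocount and thinning. The text names all 10 genes, up to 4 genes of each list with the largest absolute ratios and at least 50 UMIs in each library, and the 5 genes most correlated with Camp, Mmp9 and Padi4. Other genes named were chosen after their values were seen, and 1 gene that the rule names is not reported here.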

Additional observations from a re-analysis of the deposited data

Results flagged for a closer look

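Camp and Ngp each differed between the libraries in opposite directions in different neutrophil clusters, and this difference between clusters was not tested. Camp had a log2 ratio of LPS_MCZ over LPS of 1.29 [0.84, 1.90] in cluster 1, from 550 UMIs in 2555 LPS_MCZ cells and 33 UMIs in 492 LPS cells. In cluster 0 its ratio was -1.22 [-1.61, -0.88], from 66 UMIs in 174 LPS_MCZ cells and 1186 UMIs in 1782 LPS cells. In cluster 1 the Camp level was 40.8 CPM in LPS_MCZ and 16.1 CPM in LPS, below that of T cell-like cells, 45.8 CPM in LPS_MCZ and 83.5 CPM in LPS. In cluster 0 it was 55.6 CPM in LPS_MCZ and 131 CPM in LPS, above the T cell-like level in both libraries and below that of erythroid-like cells, 152 CPM in LPS_MCZ and 157 CPM in LPS, which carried more S100a8 than T cell-like cells. Ngp had a ratio of 1.07 [0.91, 1.25] in cluster 1, with 322 CPM in LPS_MCZ and 153 CPM in LPS, both below its level in T cell-like cells, 464 CPM in LPS_MCZ and 430.1 CPM in LPS. In cluster 7 the Ngp ratio was -0.73 [-0.78, -0.67], with 1394 CPM in LPS_MCZ and 2306 CPM in LPS, above the T cell-like level in both libraries.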

How the results depend on the processing

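Over 13 alternatives for each gene, the ratio of Padi4 over all neutrophils ranged from 1.24 to 1.48 and that of Pglyrp1 from 0.56 to 0.84, always past 0.5. Mmp9 ranged from 0.43 to 0.85 and passed 0.5 in 12 of 13. Camp ranged from -1.17 to -0.45 and Ltf from -0.81 to -0.17. In 2 alternatives added after seeing the data, leaving out cluster 1 and averaging the ratios within clusters, 0 of the 10 genes were lower by more than 0.5, against 2. For the average this depends on the use of the mean, since the medians within clusters were -0.82 for Camp and -0.60 for Ltf. Scaling by the median ratio of all genes gave 2 genes higher and 3 lower. Ngp (-0.50 to 0.19) and Mmp8 (-0.24 to 0.39) were the genes whose direction turned, and Retnlg and Wfdc21 came to -0.013 and -0.0069 without cluster 1. Without cluster 1 the chemokine-high state was left to cluster 0, with 174 LPS_MCZ cells and 1782 LPS cells. That alternative therefore does not even out the mix of states between the libraries. The number of gene and cell type pairs above 2 times the neutrophil ratio was 8, against 5 with the libraries clustered separately, 5 with T cell-like cells as the base and 5 with a threshold of 3 times. Depth limits Padi4 most, which outside neutrophils rests on at most 94 UMIs per cell type and library. No paired analysis was possible because each group held 1 pooled library.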

Other observations

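Cluster 11, an unnamed cluster led by Calca, Il17a and Il22, held 32 Padi4 UMIs in 27 LPS_MCZ cells (129 CPM) and 3 UMIs in 52 LPS cells (6.91 CPM), and the 95% counting interval of the log2 ratio ran from 2.54 to 6.57. Its Padi4 level relative to S100a8 and S100a9 was 21.8 times that of neutrophils in LPS_MCZ and 2.71 times in LPS. Platelet or megakaryocyte-like cells, 29 in LPS_MCZ and 61 in LPS, had 58388 CPM of S100a8 in LPS_MCZ and 57395 CPM in LPS, close to the neutrophil levels of 63241 CPM in LPS_MCZ and 69803 CPM in LPS. Their Lcn2 level was 16818 CPM in LPS_MCZ and 15120 CPM in LPS, while Camp had 225 CPM in LPS_MCZ and 92.2 CPM in LPS, which is 0.53 times the neutrophil ratio to S100a8 and S100a9 in LPS_MCZ and 0.13 times in LPS.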
